A study of Mus musculus with 14 samples.

Results

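Lungs of mice given resiniferatoxin (RTX) under the skin were compared directly with lungs of mice given RTX into the spinal fluid, by RNA sequencing of whole lung after the same allergen challenge. The comparison rests on 6 of the 14 libraries of the series, taken by their labels: 3 subcutaneous RTX lungs and 3 intrathecal RTX lungs. Mice of the subcutaneous RTX group (n = 3) had received rising doses of 30, 70 and 100 µg/kg in the flank over 3 days. Those of the intrathecal RTX group (n = 3) had received 25 ng per mouse near the base of the lumbar spine on each of 2 days. Subcutaneous vehicle mice (n = 2) had received 100 µl of saline, and intrathecal vehicle mice (n = 2) 10 µl of saline. All 10 libraries carried the same labels otherwise: wild-type C57BL/6, with an extract of the mould Alternaria alternata placed in the nose at 2 mg in 40 µl on 4 days to induce allergic inflammation. The route, the dose, the number of injections and the experiment that a library belonged to all changed together, so they cannot be told apart. The difference between the saline groups of both experiments, which had no RTX, is therefore given beside many genes and lists as a baseline. Where a gene or list has the RTX difference alone, part of it may also be present between the saline groups. Nothing in the labels states that each library was made from its own mouse, and the p-values below therefore rest on the spread between libraries, part of which may be technical.

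RTX is a very potent agonist of TRPV1, the heat- and capsaicin-gated channel of many pain and visceral sensory neurons, and overload of calcium through that channel kills these neurons or their endings. The lung receives sensory fibres from the vagus nerve, whose cell bodies lie in the jugular and nodose ganglia, and from spinal dorsal root ganglia. An intrathecal injection reaches the spinal ganglia and their central endings, whereas a drug given under the skin circulates and can reach vagal and spinal neurons. Sensory endings in the lung release peptides such as CGRP and substance P, and receptors for such peptides sit on endothelium, smooth muscle, group 2 innate lymphoid cells and other leukocytes. Since the cell bodies lie outside the lung, mRNA of TRPV1 in lung does not check whether the neurons were lost: Trpv1 ranged over the 10 libraries only between 0 and 0.317 CPM (counts scaled to library size).

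The 10 libraries ranged in depth between 20237371 and 24393000 estimated counts and detected 23441 to 24084 genes, and 3 counts, taken as the floor, correspond to 0.123 to 0.148 CPM. CPM values from here on are scaled by edgeR's TMM factors; they are not per length, so they compare libraries and not genes. Lung markers were high throughout, with Sftpc of alveolar type 2 cells at 5427 CPM or more in each library. The leading principal component held 31.1% of the variance, and on it the subcutaneous RTX libraries scored 56.7, 32.7 and 26.1, against −28.9, −20.6 and −25.8 for the intrathecal RTX libraries. Library 1 of the subcutaneous RTX group lay farthest out. Low-level transcripts split the libraries in a way that crosses the treatments: the processed gene copy Rps3a2 was above 2 CPM in subcutaneous RTX libraries 2 and 3 and in both intrathecal vehicle libraries, Hmga2 was above 2 CPM in the 3 intrathecal RTX libraries and subcutaneous vehicle library 1, and neither was in subcutaneous RTX library 1 or subcutaneous vehicle library 2. These 2 transcripts, and Rpl3-ps1 with the pattern of Rps3a2, had some of the largest differences between the RTX groups (log2 fold changes of 5.29, −4.67 and 4.90). No RTX library of one route shares a class of this split with an RTX library of the other route. The same holds for the vehicle libraries of both routes.

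Subcutaneous RTX lungs, relative to intrathecal RTX lungs, were higher in most genes of the B cell (11 of 12), MHC class II (9 of 10) and eosinophil (7 of 10) lists and lower in most of the alveolar type 1 list (9 of 11). Smaller parts of the plasma cell list (5 of 13) and lymphoid chemokine list (4 of 8) were higher, and smaller parts of the club (4 of 11), ciliated (5 of 10) and endothelial (6 of 14) lists lower. With edgeR's quasi-likelihood test and Benjamini-Hochberg adjustment, 2110 of 17972 genes tested (11.7%) differed at an adjusted p under 0.05, of which 1087 (6.05%) were higher and 1023 (5.69%) lower. An unadjusted p below 0.05 was seen in 28.2% of genes. Groups of 3 did not overlap in 32.8% of the genes, being higher in subcutaneous RTX lungs in 16% and lower in 16.8%, and the vehicle groups of 2 did not overlap in 48.1% (23.9% higher, 24.2% lower). Between the vehicle groups 8 genes (0.0445%) passed, 4 higher and 4 lower (0.0223% each), while 17.2% of genes had an unadjusted p below 0.05, with 2 libraries a group. Testing each gene's RTX difference against its vehicle difference, which is the difference between the RTX effects of both experiments, left 10 genes (0.0556%), 5 higher and 5 lower (0.0278% each). There, 15.2% of genes had an unadjusted p below 0.05.

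The number of differing genes fell whichever RTX library was left out. It was 959, 1252 and 1687 without subcutaneous RTX library 1, 2 or 3. Without intrathecal RTX library 1, 2 or 3 it was 1393, 1202 and 1434. Leaving out a library also lowers the power of the test, so a fall alone does not show that the result rests on that library. The same holds for the list counts and single calls below. A term for the Rps3a2 and Hmga2 split, added after the data were examined, left 26 genes, 18 of them among the 2110, while the median standard error of a log2 fold change was 0.262 with that term and 0.124 without it. With the term, 1 B cell gene (Pax5) and 1 heat shock gene (Dnaja1) passed and 0 in each other list described below. List medians with the term were 1.57 for B cells (1.19 without it), 0.76 for lymphoid chemokines (0.83) and 0.50 for MHC class II (0.61). They were −0.42 for endothelium (−0.41) and −0.31 for alveolar type 1 cells (−0.44). Further list medians with the term, some near 0 or of the opposite sign, are given below. Classes differ inside a group only in the subcutaneous RTX and subcutaneous vehicle groups. The term thus rests on differences between those few libraries, and a shift with it cannot be assigned to the split. Of 146 genes named below or in the gene lists that differed between the RTX groups, 86 kept that call whichever 1 library was left out.

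The RTX and vehicle differences often shared their direction. Among the 2110 genes, 1589 (75.3%) differed in the same direction between subcutaneous and intrathecal vehicle lungs, against 58.0% of all genes tested. In 741 genes the vehicle difference was at least 50% of the RTX difference, in 848 it was smaller with the same sign, and in 521 it had the opposite sign. Genes higher in subcutaneous RTX lungs had a median log2 fold change of 0.57 between the RTX groups and 0.16 between the vehicle groups, and genes lower there −0.50 and −0.18. The share of 75.3% was 57.1% without subcutaneous vehicle library 2 and 83.6% without subcutaneous vehicle library 1. Across the 14343 genes whose log2 CPM averaged 1 or more, Pearson's r between both log2 fold changes was 0.345. Genes are not independent replicates, and the RTX and vehicle comparisons share no library.

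**Figure D1:**
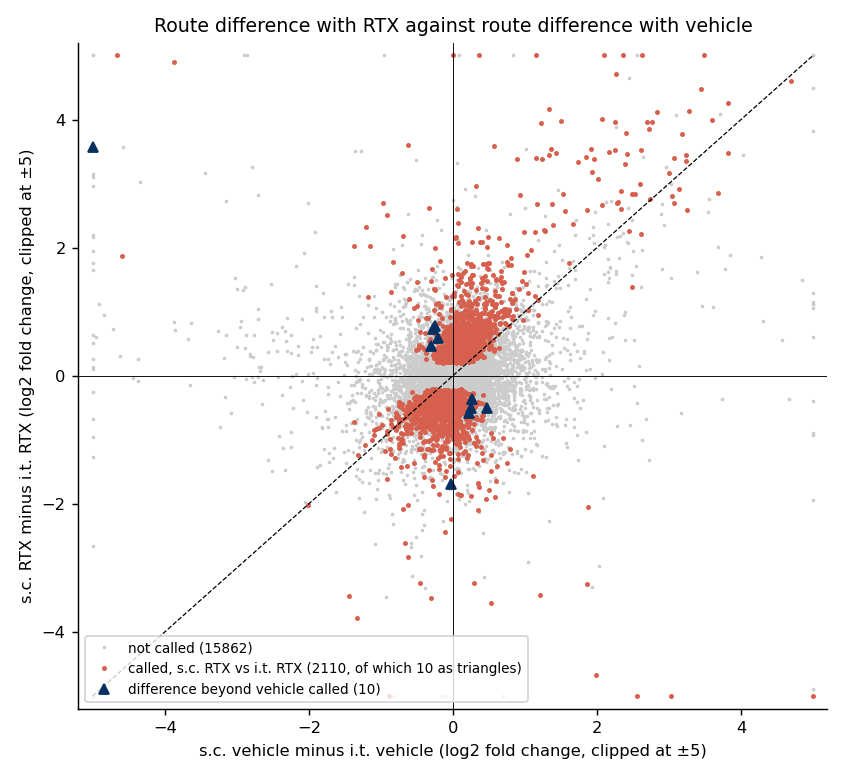
Each point is 1 of the 17972 genes tested; the vertical axis is the log2 fold change of subcutaneous RTX over intrathecal RTX lungs (3 against 3) and the horizontal axis that of subcutaneous vehicle over intrathecal vehicle lungs (2 against 2), with values beyond 5 drawn at the edge. Red points are the 2110 genes that differed between the RTX groups, triangles the 10 whose difference exceeded the vehicle difference, and the dashed line marks equal differences; most red points share their sign on both axes.

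Of the 10 genes whose difference exceeded that of saline lungs, 3 encode chaperones. Heat shock proteins fold or hold other proteins, and their genes are induced together by the transcription factor HSF1 after heat and other stress. Of 14 genes of this list tested, 5 were higher and 4 lower in subcutaneous RTX lungs, with a median log2 fold change of 0.08 (−0.01 over all genes), and the members moved in opposite directions. Without intrathecal RTX library 3 the number higher was 3, and without subcutaneous RTX library 2 the number lower was 2. Hspb1, the small chaperone HSP27 that binds unfolding proteins and actin, lies on chromosome 5 (GRCm38, 135887919 to 135889563, plus strand). It was at 162, 138 and 201 CPM in subcutaneous RTX lungs and at 599, 535 and 475 CPM in intrathecal RTX lungs. Subcutaneous vehicle lungs had 154 and 125 CPM and intrathecal vehicle lungs 131 and 153 CPM. Only the intrathecal RTX libraries stood apart, and they did not overlap with any of the other 7. The log2 fold change between the RTX groups was −1.68 ± 0.15 (SE; edgeR adjusted p = 0.000992), and beyond the vehicle difference −1.66 ± 0.23 (adjusted p = 0.0422).

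Hspe1, the mitochondrial co-chaperonin HSP10 (chromosome 1, 55088132 to 55091307, plus strand), was lower as well. Its values were 93.4, 87.6 and 85.1 CPM in subcutaneous RTX lungs, against 134, 125 and 121 CPM in intrathecal RTX lungs. In saline mice it was at 81.2 and 81.1 CPM by the subcutaneous route and at 69.4 and 67.1 CPM by the intrathecal route, so that the order of the routes was the opposite one. It had a log2 fold change of −0.51 ± 0.06 between the RTX groups and −0.76 ± 0.10 beyond the vehicle difference (edgeR adjusted p = 0.00189 and 0.0389). Hspd1, its HSP60 partner and head-to-head neighbour, had −0.29 (edgeR adjusted p = 0.055) and did not pass.

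Dnaja1, a DNAJ co-chaperone that feeds substrates to HSP70 (chromosome 4, 40722150 to 40737149, plus strand), went the other way. It was at 648, 558 and 548 CPM in subcutaneous RTX lungs and at 358, 354 and 314 CPM in intrathecal RTX lungs. Saline lungs had 583 and 495 CPM by the subcutaneous and 653 and 625 CPM by the intrathecal route, all above the intrathecal RTX libraries. Dnaja1 had a log2 fold change of 0.77 ± 0.09 between the RTX groups and 1.02 ± 0.14 beyond vehicle (edgeR adjusted p = 0.00156 and 0.0389). Hspa1b, an inducible HSP70 gene (chromosome 17, 34956436 to 34959238, minus strand) named here after its values were seen, had 442, 281 and 305 CPM in subcutaneous RTX lungs and 86.9, 66.6 and 50.9 CPM in intrathecal RTX lungs. Saline lungs had 219 and 135 CPM by the subcutaneous and 476 and 342 CPM by the intrathecal route. Its log2 fold change was 2.33 ± 0.30 between the RTX groups (edgeR adjusted p = 0.0051) and 3.54 ± 0.46 beyond vehicle, where it did not pass (adjusted p = 0.07). Hspa1a, a near-identical copy with which reads may be divided, had a log2 fold change of 2.03 ± 0.37 and lost the call without intrathecal RTX library 2 or 3. Hspa8, the constitutive HSC70, and Dnajb1, another DNAJ protein, had log2 fold changes of 0.60 and 0.68, and Dnajb1 lost the call without subcutaneous RTX library 1 or intrathecal RTX library 3.

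None of the 10 genes that passed beyond vehicle, chaperones included, kept that call whichever library was left out, whereas Hspb1, Hspe1, Dnaja1, Hspa1b and Hspa8 kept the call between the RTX groups without any 1 library. Within the intrathecal experiment, the fit of all 10 libraries gave log2 fold changes of RTX over vehicle of 1.92 for Hspb1 (edgeR adjusted p = 0.00411), 0.89 for Hspe1 (0.00091) and −0.90 for Dnaja1 (0.00859). That contrast called 0.0111% of genes higher and 0.0946% lower. In the subcutaneous experiment the same genes had 0.26, 0.13 and 0.12 and did not pass. The replicate number as a block left 2 genes beyond vehicle, neither of them among the 10.

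The start regions of the 4 chaperone genes with the values above are printed because HSF1 binds repeats of a short unit and these chaperone genes moved in opposite directions here. Each is the RefSeq window of GRCm38.p6 from 250 bases before to 50 bases after the transcript start, 5′ to 3′ on the gene's strand, and capitals mark matches of 2 adjoining heat shock units, written GAANNTTC or TTCNNGAA; the pair are searched on both strands, where each is its own reverse complement, and adjoining matches overlap.
Hspb1: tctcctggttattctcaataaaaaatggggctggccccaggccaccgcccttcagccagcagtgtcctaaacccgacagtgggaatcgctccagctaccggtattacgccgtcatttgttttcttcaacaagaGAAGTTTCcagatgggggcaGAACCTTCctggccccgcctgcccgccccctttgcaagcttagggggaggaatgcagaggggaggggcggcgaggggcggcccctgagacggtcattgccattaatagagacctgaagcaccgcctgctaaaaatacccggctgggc
Hspe1: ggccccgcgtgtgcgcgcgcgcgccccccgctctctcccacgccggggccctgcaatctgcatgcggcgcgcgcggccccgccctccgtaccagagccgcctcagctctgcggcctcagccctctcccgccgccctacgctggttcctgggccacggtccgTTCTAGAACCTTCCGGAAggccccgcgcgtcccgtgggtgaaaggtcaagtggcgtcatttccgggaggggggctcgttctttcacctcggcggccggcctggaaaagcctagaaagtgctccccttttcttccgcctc
Dnaja1: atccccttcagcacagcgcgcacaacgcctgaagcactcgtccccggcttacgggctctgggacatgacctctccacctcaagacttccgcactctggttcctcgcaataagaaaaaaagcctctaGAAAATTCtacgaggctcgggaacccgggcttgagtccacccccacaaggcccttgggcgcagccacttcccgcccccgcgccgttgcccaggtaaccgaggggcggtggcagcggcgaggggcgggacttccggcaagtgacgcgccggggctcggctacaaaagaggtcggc
Hspa1b: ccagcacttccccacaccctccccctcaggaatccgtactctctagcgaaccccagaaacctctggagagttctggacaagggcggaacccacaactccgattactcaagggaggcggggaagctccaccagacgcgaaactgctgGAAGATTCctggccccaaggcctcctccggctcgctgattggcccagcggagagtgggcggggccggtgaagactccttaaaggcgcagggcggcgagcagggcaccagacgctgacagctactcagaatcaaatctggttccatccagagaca
The windows lie at chr5:135887669-135887968 (plus strand) for Hspb1, chr1:55087898-55088197 (plus) for Hspe1, chr4:40722218-40722517 (plus, the first of 3 windows of Dnaja1) and chr17:34959189-34959488 (minus) for Hspa1b. The printed windows of Hspb1 and Hspe1 hold 2 and 3 matches, and those of Dnaja1 and Hspa1b 1 each. The other windows of Dnaja1 hold 0. At least 1 match occurs in 15.1% of all 32851 windows of the table. A run of 3 units, GAANNTTCNNGAA or its reverse complement TTCNNGAANNTTC, occurs in 0.603% of windows and among these 4 in that of Hspe1, which it shares with the start of Hspd1 on the other strand. Among other members of the list, Dnajb1 had 0 matches of 2 units in each of its windows, Hspa4l 0, and Bag3 and Hspa1a 1 each. Hsph1 had 3 in each window, and Hspd1 0 and 3. The number of matches was not tested against the direction of change. A match describes these letters and is not evidence of a bound site.

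**Figure D2:**
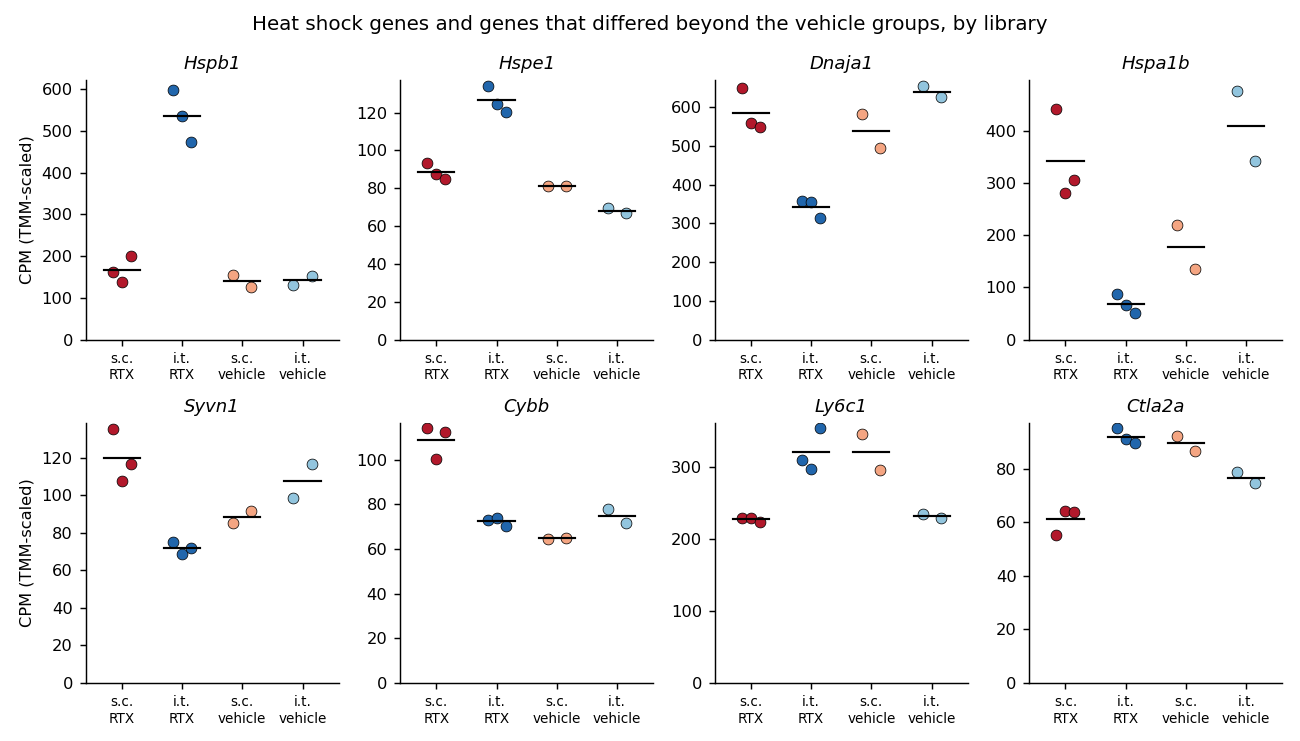
TMM-scaled CPM by library for 4 chaperone genes (upper row) and 4 further genes, in subcutaneous RTX, intrathecal RTX, subcutaneous vehicle and intrathecal vehicle lungs; points are libraries and bars are means. Hspb1 is at 475 to 599 CPM in the intrathecal RTX libraries and at 201 CPM or less in all others, while Dnaja1 and Hspa1b are lowest in the intrathecal RTX libraries.

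Genes of protein quality control in the endoplasmic reticulum (ER) were higher in part. Syvn1, the HRD1 ubiquitin ligase that marks misfolded ER proteins for degradation (chromosome 19, 6046576 to 6053712, plus strand), was at 135, 107 and 116 CPM in subcutaneous RTX lungs, against 74.9, 68.6 and 72.1 CPM in intrathecal RTX lungs. Saline lungs had 85.0 and 91.6 CPM by the subcutaneous and 98.4 and 116 CPM by the intrathecal route. The difference was 0.74 ± 0.09 on the log2 scale between the RTX groups and 1.02 ± 0.15 beyond vehicle (edgeR adjusted p = 0.00206 and 0.0396). Herpud1, which recruits substrates to that ligase, had a log2 fold change of 0.78 ± 0.09 (edgeR adjusted p = 0.00178), and 0.92 beyond vehicle with an adjusted p of 0.0579. Of 13 genes of the ER stress list, 3 were higher and 0 lower in subcutaneous RTX lungs, with a median of 0.14 against 0.13 between the vehicle groups.

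Outside protein folding, 6 genes passed beyond the vehicle difference. Cybb, the catalytic subunit of the phagocyte NADPH oxidase on the X chromosome, was at 114, 101 and 113 CPM in subcutaneous RTX lungs and at 73.1, 73.9 and 70.1 CPM in intrathecal RTX lungs, while subcutaneous vehicle lungs had 64.6 and 64.8 CPM and intrathecal vehicle lungs 77.7 and 71.8 CPM. Here the subcutaneous RTX libraries stood apart from the other 7, with a log2 difference of 0.80 ± 0.10 beyond vehicle (edgeR adjusted p = 0.0389). Mtmr4, a lipid phosphatase of endosomes, had 0.77 beyond vehicle. Ly6c1, a surface protein of lung endothelium and of some leukocytes, was at 229, 229 and 223 CPM in subcutaneous RTX lungs, against 310, 297 and 354 CPM in intrathecal RTX lungs. Its levels in saline lungs were turned round, at 346 and 295 CPM by the subcutaneous and 234 and 228 CPM by the intrathecal route, giving −0.97 ± 0.13 beyond vehicle. Ctla2a, a cathepsin inhibitor, and Ecscr, a surface protein of endothelial cells and platelets, had −0.81 and −0.63. The long noncoding RNA Gm38025 was near the floor, at 0.970, 0.778 and 0.572 CPM in subcutaneous RTX lungs and at 0.0911, 0 and 0.0826 CPM in intrathecal RTX lungs, and at 0 in both subcutaneous vehicle libraries, so its fitted fold change is not a measure of size.

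Of the 12 largest rises that met the naming rule, 10 were antibody genes, and the others were the processed gene copies Rps3a2 and Rpl3-ps1. Plasma cells secrete antibodies assembled from a heavy chain, whose constant region sets the class, and a kappa or lambda light chain. Of 13 plasma cell genes tested, 5 were higher and 0 lower in subcutaneous RTX lungs, with a median log2 fold change of 2.20, and the median between the vehicle groups was 1.95 with 0 genes past the threshold. The median between the RTX groups was 1.38 without subcutaneous RTX library 1 and 3.08 without intrathecal RTX library 2, and 3.69 with the Rps3a2 and Hmga2 split as a term, and DESeq2 called 9 genes. In whole lung, a change in the number of cells of a type and a change in RNA per cell cannot be told apart. Igha, the constant region of IgA, the main antibody class of mucosal surfaces (minus strand of chromosome 12, 113254830 to 113260236), was at 143, 147 and 258 CPM in subcutaneous RTX lungs and at 9.93, 7.14 and 13.8 CPM in intrathecal RTX lungs. Subcutaneous vehicle lungs had 132 and 90.4 CPM, and intrathecal vehicle lungs 9.33 and 13.5 CPM. Both lungs of the subcutaneous vehicle group thus lay far above every intrathecal library and below every subcutaneous RTX library. Igha had a log2 fold change of 4.14 ± 0.36 between the RTX groups (edgeR adjusted p = 0.00206), 3.28 ± 0.43 between the vehicle groups (adjusted p = 0.0922) and 0.86 ± 0.54 beyond vehicle (adjusted p = 0.499).

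IgG constant regions were higher as well. Ighg2b was at 20.3, 12.9 and 21 CPM in subcutaneous RTX lungs, against 2.55, 1.67 and 1.73 CPM in intrathecal RTX lungs, with a log2 fold change of 3.18 ± 0.28 (edgeR adjusted p = 0.000809) and a vehicle difference of 1.93. Ighg2c and Ighg1 had 4.47 ± 0.61 and 3.55 ± 0.72, and their vehicle differences were 3.45 and 1.37. Among these 12 rises were 8 variable segments of heavy or kappa chains, with log2 fold changes of 3.54 (Igkv12-46) to 4.72 (Ighv2-9). Ighv1-81 was at 9.42, 5.95 and 5.86 CPM in subcutaneous RTX lungs and at 0.273, 0.345 and 0.248 CPM in intrathecal RTX lungs, with a log2 fold change of 4.60 ± 0.44. Subcutaneous vehicle lungs had 3.98 and 3.34 CPM and intrathecal vehicle lungs 0 and 0.272 CPM, a difference that passed the threshold (edgeR adjusted p = 0.0415), although a fold against values this near the floor is no measure of size. Ighv2-9, Ighv6-6, Igkv8-27 and Igkv12-46 lost the call when single libraries were left out, while Ighv1-81, Ighv1-72, Ighv6-3 and Igkv8-30 kept it without any 1 library. Variable segments are close copies of each other, so the division of reads among them is uncertain. The most abundant antibody genes did not pass: Igkc and Ighm had log2 fold changes of 2.16 and 2.20, each with an edgeR adjusted p of 0.22. The summed level of the plasma cell list was 5355, 1811 and 1683 CPM in subcutaneous RTX lungs, against 844, 1601 and 957 CPM in intrathecal RTX lungs, so subcutaneous RTX library 1 held most.

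B cell genes were higher nearly throughout the list, with a smaller share of the difference at baseline. Of 12 tested, 11 were higher and 0 lower (6.05% of all genes were higher), with a median of 1.19 between the RTX groups and 0.43 between the vehicle groups, where none passed. Cd22, an inhibitory receptor of B cells (minus strand of chromosome 7, 30865402 to 30880342), was at 55.3, 36.3 and 36.9 CPM in subcutaneous RTX lungs and at 14.8, 20.6 and 19.6 CPM in intrathecal RTX lungs. Saline lungs had 19.1 and 23.5 CPM by the subcutaneous and 17.5 and 13.7 CPM by the intrathecal route. All 3 subcutaneous RTX libraries were above the other 7, library 1 the most. Cd22 had a log2 fold change of 1.22 ± 0.19 (edgeR adjusted p = 0.00598), and 0.77 ± 0.31 beyond vehicle (adjusted p = 0.283). Pax5, the transcription factor that fixes B cell identity, was at 33.1, 18.5 and 19.3 CPM in subcutaneous RTX lungs, against 8.70, 8.42 and 6.65 CPM in intrathecal RTX lungs, and had 1.58 ± 0.21 between the RTX groups and 0.27 between the vehicle groups. Fcer2a, the low-affinity IgE receptor CD23, had 0.87. The count of 11 was 8 to 11 when any 1 library was left out. With the Rps3a2 and Hmga2 split as a term, Pax5 alone of the list passed, and the list median was 1.57.

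The summed level of the B cell list was 563, 375 and 356 CPM in subcutaneous RTX lungs and 177, 220 and 167 CPM in intrathecal RTX lungs. Of 7 genes of a thymus and lymph node list 3 passed the filter on low counts, and 0 of these the threshold (0 at an unadjusted p below 0.05, 0 by DESeq2 or limma voom), with sums of 16.9 to 19.2 CPM in subcutaneous RTX lungs and 13.3 to 19.2 CPM in intrathecal RTX lungs. Dntt, an enzyme of immature lymphocytes below the filter, was at 0.325, 0.505 and 0.383 CPM in subcutaneous RTX lungs and at 0.363, 0.0987 and 0.112 CPM in intrathecal RTX lungs, which overlapped, and Rag1 and Rag2, which rearrange antigen receptor genes, had at most 1 count in any library. Their part in the B cell result was not tested.

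Genes that organise lymphoid tissue were higher too. Of 8 lymphoid chemokine and lymphotoxin genes, 4 were higher and 0 lower, with a median of 0.83 against 0.21 between the vehicle groups, and 4 were higher without any 1 library. Cxcl13, the chemokine that draws B cells into follicles (chromosome 5, 95956951 to 95961068, plus strand), was at 35.8, 34.9 and 34.1 CPM in subcutaneous RTX lungs and at 12.1, 9.11 and 16.9 CPM in intrathecal RTX lungs. It was at 14.8 and 22.0 CPM in subcutaneous vehicle lungs and at 13.8 and 17.6 CPM in intrathecal vehicle lungs, which overlapped. For Cxcl13 the log2 fold change was 1.45 ± 0.21 between the RTX groups (edgeR adjusted p = 0.00475) and 1.23 ± 0.34 beyond vehicle (adjusted p = 0.173). Cxcr5, the receptor for this chemokine, had 1.49 ± 0.28 between the RTX groups and 0.09 between the vehicle groups. Ltb, lymphotoxin beta, had 1.03, and Ccr7, which guides dendritic cells and T cells to lymph nodes, 0.73, of which 0.59 was also seen between the vehicle groups. Ccl21a and Ccl19, ligands of CCR7, had −0.40 and −0.53 and did not pass (edgeR adjusted p = 0.14 and 0.15).

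Antigen presentation moved as a block of small differences. MHC class II molecules display peptides to helper T cells, and 9 of their 10 genes and loading factors were higher and 0 lower, with a median of 0.61, against 0.39 between the vehicle groups with 0 past the threshold. H2-DMb2, a chain of the peptide exchange factor, was at 73.5, 69.2 and 59.1 CPM in subcutaneous RTX lungs and at 29.9, 37.2 and 28.5 CPM in intrathecal RTX lungs. Saline lungs had 49.1 and 46.5 CPM by the subcutaneous and 34.1 and 29.8 CPM by the intrathecal route, between both RTX groups or level with the intrathecal one. Its log2 fold change was 1.08 ± 0.11 (edgeR adjusted p = 0.00123), and 0.58 ± 0.14 between the vehicle groups. H2-Ob, an exchange factor chain of B cells, had 1.14, and the antigen-presenting chains H2-Aa and H2-Eb1 had 0.64 and 0.67 with vehicle differences of 0.52 and 0.46. The count of 9 was 9 or 10 when any 1 library was left out. Of 11 dendritic cell genes, 5 were higher and 0 lower, led by Ccr7, Itgae, the CD103 integrin chain, at 0.67 and Flt3, a growth factor receptor, at 0.51.

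**Figure D3:**
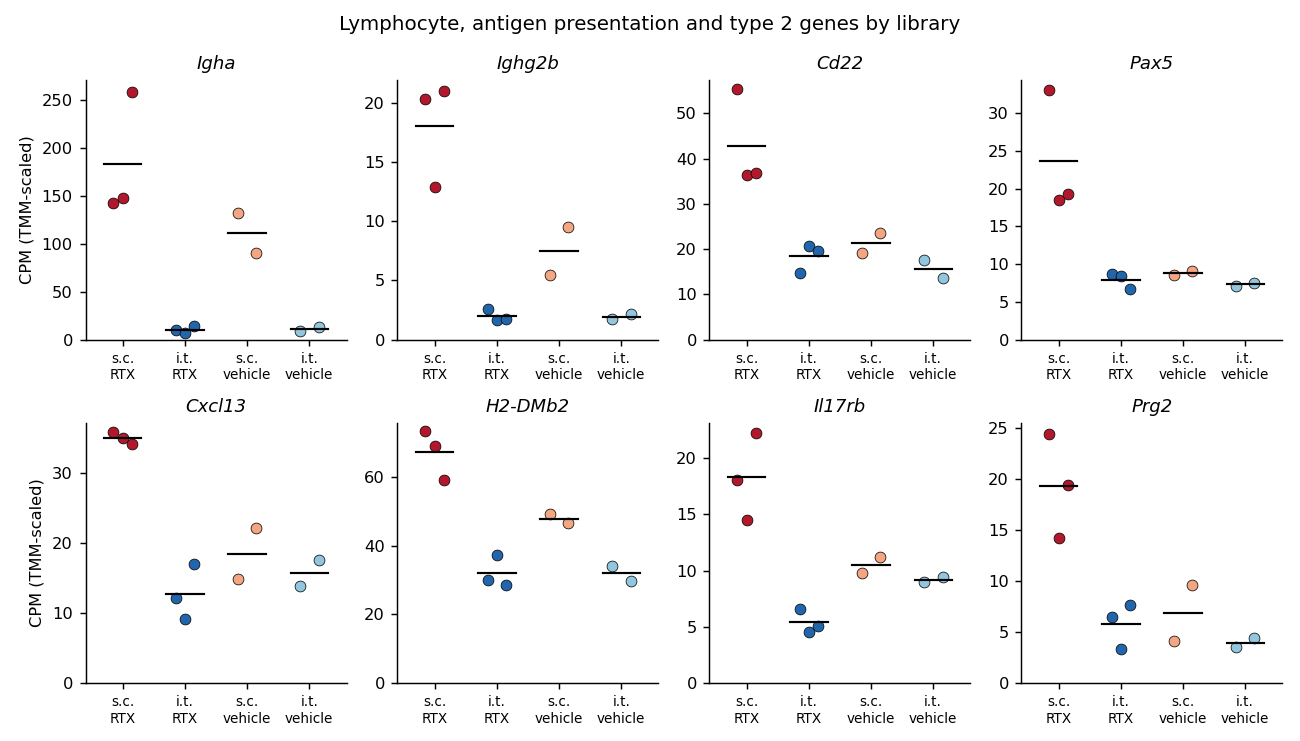
TMM-scaled CPM by library for antibody, B cell, lymphoid chemokine, antigen presentation, innate lymphoid and eosinophil genes in the 4 groups; points are libraries and bars are means. For Igha, subcutaneous vehicle lungs (90.4 and 132 CPM) lie far above the intrathecal groups and below subcutaneous RTX lungs. They lie near the intrathecal groups for Cd22 and Pax5, and between both RTX groups for Il17rb.

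Type 2 immunity is the arm that mould allergens drive in the airways, and 1 of its 7 cytokine genes tested differed. Il13, the cytokine behind mucus and airway hyperreactivity, was at 15.7, 13.1 and 13.2 CPM in subcutaneous RTX lungs and at 7.83, 6.84 and 7.31 CPM in intrathecal RTX lungs. Its values in saline lungs were 6.83 and 15.1 CPM by the subcutaneous and 6.00 and 8.79 CPM by the intrathecal route, so 1 saline lung reached the level of the subcutaneous RTX lungs. The log2 fold change was 0.93 ± 0.25 (edgeR adjusted p = 0.0396), and the call was lost without any single RTX library of either route. Il4 and Il5 had 0.70 and 0.63 and did not pass (edgeR adjusted p = 0.155 and 0.29), and Il5 had 1.19 between the vehicle groups. The epithelial alarmin Il33 had 0.04 and the repair factor Areg −0.17, with adjusted p of 0.847 and 0.708.

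Group 2 innate lymphoid cells (ILC2s) are tissue lymphocytes that make these cytokines in response to alarmins and neuropeptides. Of 15 ILC2 genes, 5 were higher and 0 lower, with a median of 0.54 against 0.13 between the vehicle groups. The median was 0.33 without subcutaneous RTX library 1 and 0.05 with the Rps3a2 and Hmga2 split as a term. Il17rb, the receptor chain for interleukin 25 (minus strand of chromosome 14, 29996135 to 30008896), was at 18.1, 14.5 and 22.3 CPM in subcutaneous RTX lungs and at 6.56, 4.53 and 5.04 CPM in intrathecal RTX lungs. Subcutaneous vehicle lungs had 9.77 and 11.2 CPM and intrathecal vehicle lungs 9.02 and 9.38 CPM, between both RTX groups. The log2 fold change was 1.76 ± 0.18 (edgeR adjusted p = 0.000992), and 1.58 ± 0.28 beyond vehicle, where it did not pass (adjusted p = 0.0788). Nmur1, the receptor for neuromedin U by which cholinergic and sensory neurons activate ILC2s in mice, was at 2.03, 2.47 and 3.00 CPM in subcutaneous RTX lungs and at 0.865, 0.985 and 0.950 CPM in intrathecal RTX lungs, with a log2 fold change of 1.42 ± 0.30 (edgeR adjusted p = 0.0141) and a vehicle difference of 0.05. Il7r, the interleukin 7 receptor of lymphocytes, had 0.90 ± 0.12. Il1rl1, the receptor for interleukin 33, had 0.74 and lost the call without subcutaneous RTX library 1 or 3, intrathecal RTX library 2 or 3, or either intrathecal vehicle library. Arg1, an enzyme of ILC2s and macrophages, had 0.88 ± 0.45 and did not pass. Without 1 library the count of 5 was 3 to 6, and it was 3 without subcutaneous RTX library 1 or 3, intrathecal RTX library 2 or either intrathecal vehicle library.

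Eosinophil genes had a median of 1.54, with 7 of 10 higher and 0 lower, against 0.38 between the vehicle groups. Prg2, the major basic protein of eosinophil granules, was at 24.5, 14.2 and 19.4 CPM in subcutaneous RTX lungs and at 6.42, 3.35 and 7.64 CPM in intrathecal RTX lungs, with saline lungs at 4.12 and 9.57 CPM by the subcutaneous and 3.47 and 4.35 CPM by the intrathecal route. Its log2 fold change was 1.73 ± 0.37 (edgeR adjusted p = 0.0195), lost without subcutaneous RTX library 1 or intrathecal RTX library 1. Cebpe, a transcription factor of granulocyte maturation, was at 22.9, 20.6 and 24.4 CPM in subcutaneous RTX lungs and at 11, 7.48 and 5.24 CPM in intrathecal RTX lungs, and at 1.52 ± 0.27 it kept the call without any 1 library. The count of 7 eosinophil genes was 1 without subcutaneous RTX library 1, 2 without intrathecal RTX library 2, and 4 without subcutaneous RTX library 3 or intrathecal RTX library 3. The median lay between 1.44 and 1.74 whichever library was left out, and was 0.52 with the Rps3a2 and Hmga2 split as a term.

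Chemokines of type 2 inflammation were higher in part. Of 9 tested, 4 were higher and 1 lower, with a median of 0.68 and a vehicle median of 0.57. With the Rps3a2 and Hmga2 split as a term the median was 0.01. The lower gene, Ccl7 (−0.42), lost the call without subcutaneous RTX library 2 or 3 or intrathecal RTX library 1 or 3. Ccl22, a ligand of CCR4 on helper T cells, was at 185, 224 and 165 CPM in subcutaneous RTX lungs and at 90.8, 94.9 and 77.7 CPM in intrathecal RTX lungs, a log2 fold change of 1.12 ± 0.12 with 0.55 between the vehicle groups. Ccl17, the other CCR4 ligand, was at 102, 128 and 108 CPM in subcutaneous RTX lungs and at 58.3, 71.9 and 53.4 CPM in intrathecal RTX lungs. Its saline values of 124 and 121 CPM by the subcutaneous route and 67.0 and 71.3 CPM by the intrathecal route were as far apart, with log2 fold changes of 0.88 ± 0.11 for RTX and 0.82 ± 0.14 for vehicle. Ccl11, the eosinophil chemoattractant eotaxin, had 0.39 and a vehicle difference of 0.57, and lost the call without RTX library 1 or 2 of either route.

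Macrophage, monocyte and neutrophil genes were higher in part. Of 11 alveolar macrophage genes, 4 were higher and 0 lower, and their median was 0.31, with a vehicle median of 0.56. The count of 4 was 2 without subcutaneous RTX library 2 or intrathecal RTX library 2. Ear2, a ribonuclease of macrophages and eosinophils, was at 264, 257 and 295 CPM in subcutaneous RTX lungs and at 143, 141 and 137 CPM in intrathecal RTX lungs, with log2 fold changes of 0.95 ± 0.09 for RTX and 0.76 ± 0.10 for vehicle, both past the threshold (edgeR adjusted p = 0.000809 and 0.0415). Itgax, the CD11c integrin chain, had 0.85 ± 0.09 and a vehicle difference of 0.21. Monocyte and interstitial macrophage genes were higher in 5 of 13, a count of 0 without subcutaneous RTX library 1 or intrathecal RTX library 2, 1 without subcutaneous RTX library 3 or intrathecal RTX library 1, 2 without subcutaneous RTX library 2 and 3 without either intrathecal vehicle library. Their median was 0.40, against 0.205 between the vehicle groups, and was 0.01 with the Rps3a2 and Hmga2 split as a term. Chil3, whose chitinase-like product is abundant in type 2 lung inflammation, had 0.67 and a vehicle difference of 0.53, and lost the call without subcutaneous RTX library 2 or intrathecal RTX library 2. Neutrophil genes were higher in 3 of 10 (1 without intrathecal RTX library 2), with a median of 0.62 against 0.39 between the vehicle groups and 0.30 with the split as a term, and of these Retnlg, a secreted resistin-like protein of neutrophils, had 1.17 ± 0.21. Inflammatory cytokines were higher in 4 of 14 (2 without subcutaneous RTX library 3 or any 1 of the intrathecal RTX libraries). Their median was 0.39, against 0.255 between the vehicle groups, or 0.18 with the split as a term. Among them Ccl4, a chemokine of activated macrophages and lymphocytes, was at 1.72 ± 0.28. T cell genes were higher in 1 of 15, a call lost without most single libraries. By edgeR, natural killer cell genes had 0 of 12 past the threshold, 1 with an unadjusted p below 0.05, and 0 by DESeq2 or limma voom.

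Proliferation genes were higher in 9 of 15 and lower in 0, with a median of 0.40 against 0.22 between the vehicle groups. Birc5 and Ccnb2, which act in mitosis, had 0.49 and 0.51. The count was 2 without subcutaneous RTX library 1 or intrathecal RTX library 2, 4 without subcutaneous RTX library 2, and 6 without intrathecal RTX library 1. Interferon-induced genes were lower in 6 of 18 and higher in 0, and the median of −0.33 was close to the vehicle median of −0.37. Ifit3, an antiviral effector, was at 58.5, 55.7 and 51.2 CPM in subcutaneous RTX lungs and at 84.0, 86.7 and 83.5 CPM in intrathecal RTX lungs, a log2 fold change of −0.62 ± 0.07 (edgeR adjusted p = 0.00141) with −0.21 between the vehicle groups. The count of 6 was 2 without subcutaneous RTX library 2, 4 without subcutaneous RTX library 3 or intrathecal RTX library 1, and 9 without subcutaneous RTX library 1.

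**Figure D4:**
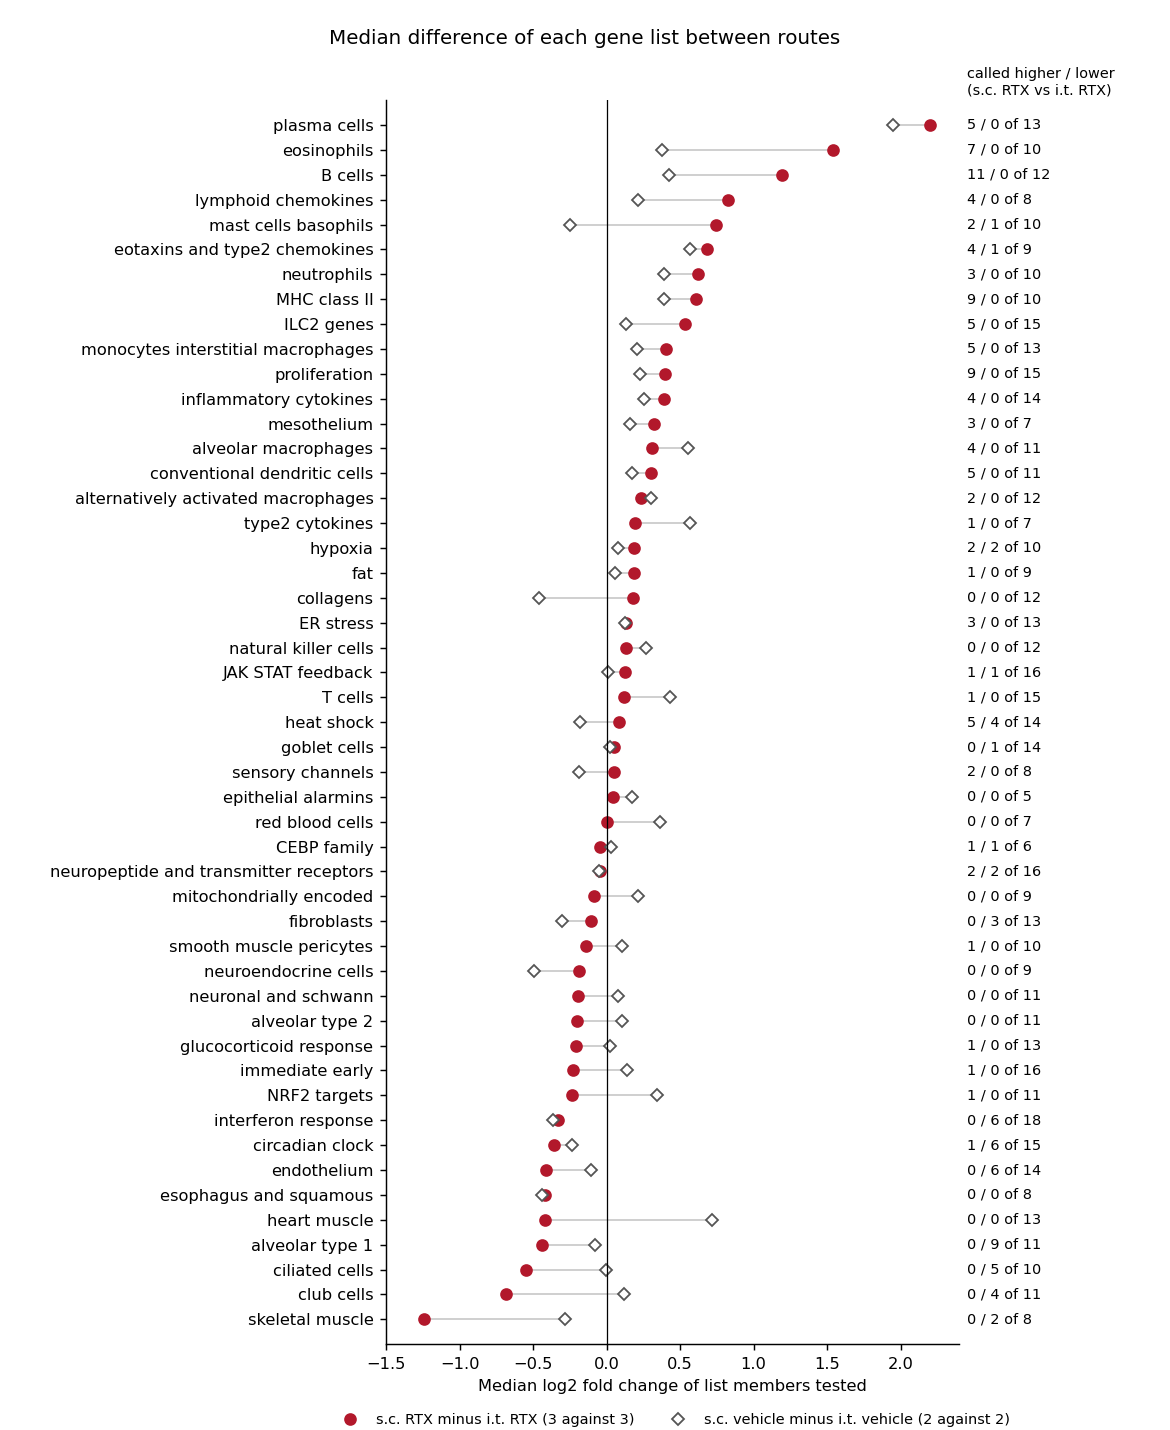
Median log2 fold change of the tested members of each gene list, subcutaneous RTX over intrathecal RTX lungs (filled) and subcutaneous vehicle over intrathecal vehicle lungs (open), ordered by the RTX median, with the number of members called higher and lower between the RTX groups of the number tested at the right. The lists farthest right are leukocyte lists (plasma cells 2.20, eosinophils 1.54, B cells 1.19) and the alveolar type 1, ciliated and club cell lists (−0.44, −0.55 and −0.69) lie to the left, with skeletal muscle (−1.24) farthest left. The open marker is close to the filled one for plasma cells and interferon response but not for eosinophils or club cells.

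Alveolar type 1 cells are the thin cells through which gas passes. Of their 11 genes 9 were lower in subcutaneous RTX lungs and 0 higher (5.69% of all genes were lower), with a median of −0.44, against −0.08 between the vehicle groups. Aqp5, a water channel of these cells and of airway glands (chromosome 15, 99590782 to 99594829, plus strand), was at 189, 169 and 176 CPM in subcutaneous RTX lungs and at 269, 292 and 282 CPM in intrathecal RTX lungs. Saline lungs had 248 and 247 CPM by the subcutaneous and 251 and 272 CPM by the intrathecal route. The subcutaneous RTX libraries lay below the other 7, with a log2 fold change of −0.66 ± 0.07 (edgeR adjusted p = 0.000992) and −0.58 ± 0.10 beyond vehicle (adjusted p = 0.0788). Ager, the receptor RAGE, was at 1361, 1282 and 1402 CPM in subcutaneous RTX lungs and at 1830, 2075 and 1617 CPM in intrathecal RTX lungs, with −0.45 ± 0.09. Clic5 and Cav1, a chloride channel protein and the coat protein of caveolae, had −0.48 and −0.44. The count of 9 was 4 without subcutaneous RTX library 1, 5 without subcutaneous RTX library 3 or intrathecal RTX library 1, and 6 without subcutaneous RTX library 2 or intrathecal RTX library 2. By edgeR, 0 of 11 alveolar type 2 genes passed, 2 had an unadjusted p below 0.05, and DESeq2 called 1 and limma voom 0. Sftpc, surfactant protein C, had −0.46 ± 0.14 (edgeR adjusted p = 0.055).

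Club cells, the secretory cells of small airways, had 4 of 11 genes lower and 0 higher, with a median of −0.69, whereas the vehicle median was 0.12. With the Rps3a2 and Hmga2 split as a term the median was −0.10. Scgb1a1, the secretoglobin CC10 and their main product (minus strand of chromosome 19, 9083636 to 9087958), was at 4072, 4198 and 4630 CPM in subcutaneous RTX lungs and at 7593, 9214 and 7081 CPM in intrathecal RTX lungs. Subcutaneous vehicle lungs had 10934 and 7054 CPM and intrathecal vehicle lungs 8329 and 7567 CPM. Every subcutaneous RTX library lay below the other 7. The log2 fold change was −0.89 ± 0.15 between the RTX groups (edgeR adjusted p = 0.00723), 0.18 between the vehicle groups and −1.07 ± 0.24 beyond vehicle (adjusted p = 0.129). Cldn10, a tight junction claudin of these cells, had −0.69 ± 0.13 between the RTX groups and 0.39 between the vehicle groups. Hp, haptoglobin, and Cckar, the cholecystokinin receptor, had −0.67 and −0.82. The count of 4 did not go below 4 whichever library was left out, and was 7 without subcutaneous vehicle library 2.

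Ciliated cells move mucus by dynein-driven cilia. Of 10 genes 5 were lower and 0 higher, with a median of −0.55 and a vehicle median of 0.00. With the Rps3a2 and Hmga2 split as a term the fitted median was 0.17, of the opposite sign. Dynlrb2, a dynein light chain, was at 6.33, 7 and 8.49 CPM in subcutaneous RTX lungs and at 12.5, 15.3 and 14.3 CPM in intrathecal RTX lungs, with −0.95 ± 0.17. Tppp3, a tubulin-binding protein, had −0.65 ± 0.13, and these 2 kept the call without any 1 library. The count of 5 was 2 without any 1 of the subcutaneous RTX libraries, intrathecal RTX library 2 or intrathecal RTX library 3. Foxj1, the factor that starts the motile cilia programme, had −0.40 (edgeR adjusted p = 0.39). Goblet cell genes were lower in 1 of 14, a call lost without RTX library 1 or 2 of either route, intrathecal RTX library 3 or either intrathecal vehicle library, and the mucin Muc5ac had 0.01 ± 0.26 and Clca1, a mucus protein, −0.15 ± 0.21, neither past the threshold.

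Endothelial genes were lower in 6 of 14 and higher in 0, with a median of −0.41 against −0.11 between the vehicle groups. Cldn5, the tight junction claudin of endothelium, was at 241, 274 and 266 CPM in subcutaneous RTX lungs and at 409, 366 and 336 CPM in intrathecal RTX lungs, with saline lungs at 356 and 337 CPM by the subcutaneous and 280 and 336 CPM by the intrathecal route. Its log2 fold change was −0.51 ± 0.09 (edgeR adjusted p = 0.00748), and −0.68 ± 0.15 beyond vehicle (adjusted p = 0.116). Sema3c, a guidance factor, and Cdh5, VE-cadherin, had −0.50 and −0.51, and Cdh5, with a vehicle difference of −0.46, lost the call without subcutaneous RTX library 1 or intrathecal RTX library 1. Without subcutaneous RTX library 1 the count of 6 was 2, and without intrathecal RTX library 1 it was 3. Among the largest falls by the naming rule stood Esm1, a proteoglycan of growing endothelium, at 2.68, 3.66 and 2.53 CPM in subcutaneous RTX lungs and 9.20, 9.95 and 5.57 CPM in intrathecal RTX lungs, and Dysf, a membrane repair protein, at 10.7, 17.1 and 13.6 CPM in subcutaneous and 42.1, 31.5 and 42.8 CPM in intrathecal RTX lungs. Their log2 fold changes were −1.47 ± 0.24 and −1.49 ± 0.21, and their vehicle differences −0.33 and −0.10. Beside these, the falls named by the rule were Lhfpl4, Bex2, Faim2, Gbp10, Rptn, Kcnh1, Ccna1 and Spata17, at −1.29 to −1.46. Hmga2 and Hspb1, whose values are given above, were the largest falls by this rule. Lhfpl4 and Faim2 kept the call without any 1 library.

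Fibroblast genes were lower in 3 of 13, with a median of −0.11, or −0.53 with the Rps3a2 and Hmga2 split as a term. Between the vehicle groups their median was −0.31. Collagen genes were higher or lower in 0 of 12, with 0 at an unadjusted p below 0.05 and 0 by DESeq2 or limma voom. Their median was 0.18 between the RTX groups and −0.46 between the vehicle groups, where 0 were above 0 and 0 passed. Beyond vehicle it was 0.57, with all 12 above 0 and 0 past the threshold. With the split as a term the RTX median was −0.67. The 12 do not include Col23a1, described below. Npnt, a matrix ligand of integrins, was at 252, 307 and 359 CPM in subcutaneous RTX lungs and at 567, 503 and 449 CPM in intrathecal RTX lungs, and saline lungs showed as large a difference, with 388 and 374 CPM by the subcutaneous and 619 and 662 CPM by the intrathecal route. The log2 fold changes were −0.73 ± 0.12 for RTX and −0.75 ± 0.15 for vehicle. Col23a1, a membrane-bound collagen, was at 21, 23.8 and 24.3 CPM in subcutaneous RTX lungs and at 53.0, 48.5 and 44.9 CPM in intrathecal RTX lungs, with −1.08 ± 0.08 for RTX (edgeR adjusted p = 0.00065) and −0.75 ± 0.10 for vehicle (adjusted p = 0.0415). It is 1 of 5 genes that differed between the RTX groups and also passed in the same direction between the vehicle groups; the others were Ighv1-81, Ear2, Ramp3 and Ankrd50.

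**Figure D5:**
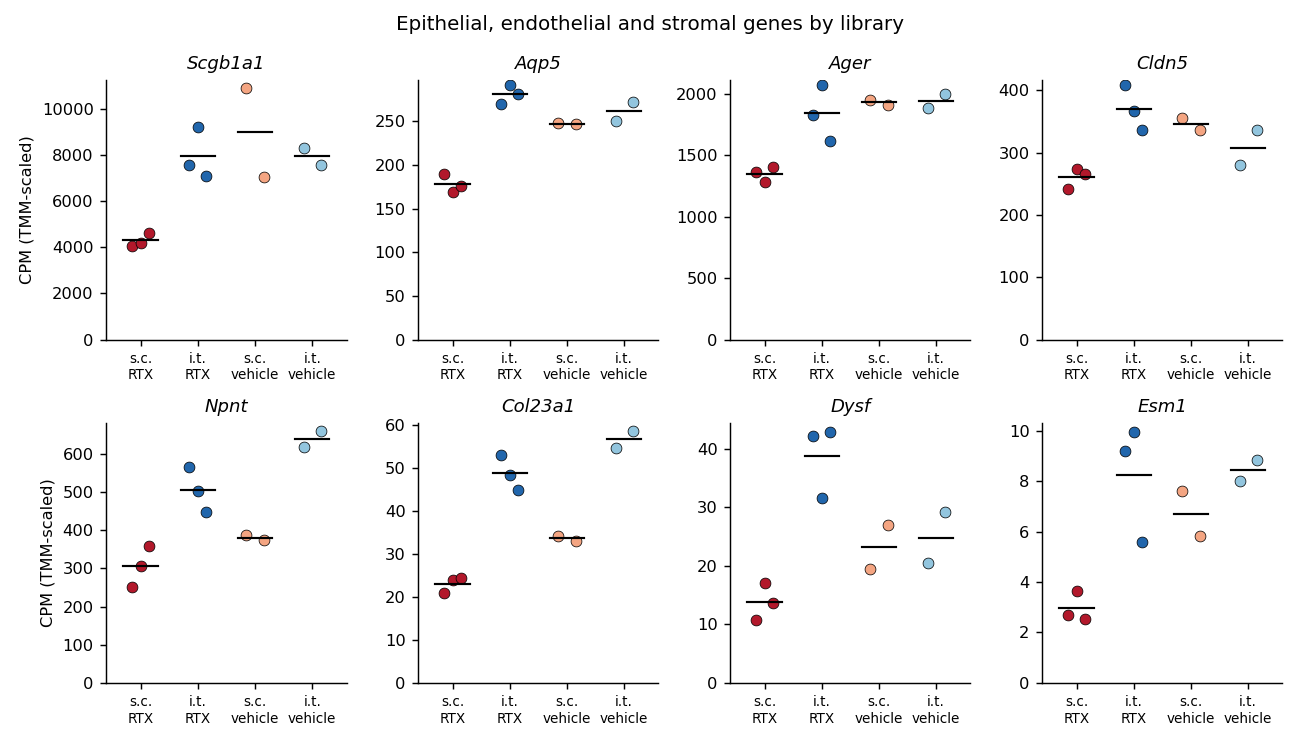
TMM-scaled CPM by library for epithelial (Scgb1a1, Aqp5, Ager), endothelial (Cldn5, Esm1) and other structural or matrix genes in the 4 groups; points are libraries and bars are means. Subcutaneous RTX libraries are the lowest for Scgb1a1, Aqp5 and Ager, whereas Npnt and Col23a1 are also lower in subcutaneous than in intrathecal vehicle lungs.

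Sensory peptides are made in ganglia outside the lung, and their receptors in the lung. Of 12 sensory neuropeptide genes only 4 passed the filter on low counts, and 0 of them differed by edgeR, by unadjusted p, by DESeq2 or by limma voom. Calca, which encodes CGRP alpha, had −0.37 ± 0.28 and Calcb, CGRP beta, 0.05 ± 0.33. Among 16 peptide and transmitter receptors 2 were higher and 2 lower. Ramp3, a receptor partner that turns the calcitonin receptor-like receptor into an adrenomedullin receptor, was at 18.8, 17.9 and 17.7 CPM in subcutaneous RTX lungs and at 9.61, 9.01 and 11 CPM in intrathecal RTX lungs. Its saline values were 16.8 and 19.1 CPM by the subcutaneous and 8.52 and 9.83 CPM by the intrathecal route, with log2 fold changes of 0.88 ± 0.11 for RTX and 0.97 ± 0.14 for vehicle, both past the threshold (edgeR adjusted p = 0.00206 and 0.0415). Adrb1, the beta-1 adrenoceptor gene, was at 27.6, 25.7 and 26.1 CPM in subcutaneous RTX lungs and at 40.9, 45.4 and 42.3 CPM in intrathecal RTX lungs, with −0.70 ± 0.10 (edgeR adjusted p = 0.00299) and −0.08 between the vehicle groups. Ramp2, another partner of that receptor in endothelium, had −0.55 and lost the call without RTX library 1 or 2 of either route. Ramp1, which completes the CGRP receptor, had −0.04 ± 0.15, and Calcrl, the receptor itself, −0.36 ± 0.13, neither past the threshold.

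Sensory channels were higher in 2 of 8 and lower in 0. Trpm2, an oxidant-gated channel also found in myeloid cells, had 0.94 ± 0.15 (edgeR adjusted p = 0.00505), and Trpv2, a TRPV1 relative of macrophages, 0.43 ± 0.09. Genes of neurons and Schwann cells (11 tested) and of neuroendocrine cells (9 tested) had 0 past edgeR's threshold, 2 each with an unadjusted p below 0.05, and 0 by DESeq2 or limma voom. Clock genes, which follow the hour of collection, were lower in 6 of 15 and higher in 1. Their median was −0.36 between the RTX groups and −0.24 between the vehicle groups, where 0 passed. Dbp, a clock output factor, was at 23.5, 31.4 and 29.1 CPM in subcutaneous RTX lungs and at 67.4, 76.7 and 46.0 CPM in intrathecal RTX lungs, with −1.17 ± 0.21 (edgeR adjusted p = 0.0118), and saline lungs had 44.7 and 33.2 CPM by the subcutaneous and 37.8 and 49.4 CPM by the intrathecal route. Tef and Nr1d2, further clock outputs, had −0.71 and −0.45. Without subcutaneous RTX library 1 or intrathecal RTX library 2 the number lower was 3, and without subcutaneous RTX library 2 or intrathecal RTX library 1 it was 4. The hour of collection is not given in the labels, and its part in the results was not tested.

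Markers of neighbouring tissues were compared for uneven dissection. Of 13 heart muscle genes 0 passed by edgeR, DESeq2 or limma voom and 0 had an unadjusted p below 0.05, with summed levels of 158 to 204 CPM in subcutaneous RTX lungs and 157 to 362 CPM in intrathecal RTX lungs. Saline lungs were further apart, with 499.7 and 133.3 CPM by the subcutaneous and 264.1 and 164.3 CPM by the intrathecal route, subcutaneous vehicle library 1 holding most. Skeletal muscle genes were lower in 2 of 8 (Myh4 and Tnnt3, calls that were both lost without subcutaneous RTX library 1 or intrathecal RTX library 2), with sums of 7.14 to 8.87 CPM in subcutaneous RTX lungs and 14.8 to 29.4 CPM in intrathecal RTX lungs. Mesothelial genes were higher in 3 of 7, a count of 0 without subcutaneous RTX library 1 or intrathecal RTX library 1 and 1 without subcutaneous RTX library 3 or either intrathecal vehicle library, with sums of 534 to 675 CPM in subcutaneous RTX lungs and 509 to 626 CPM in intrathecal RTX lungs. Red blood cell genes had 0 of 7 past the threshold (0 at an unadjusted p below 0.05, 0 by DESeq2 or limma voom), with 1840 to 3120 CPM in subcutaneous RTX lungs and 1370 to 4510 CPM in intrathecal RTX lungs. Squamous genes had 0 of 8 past the threshold, with 2 at an unadjusted p below 0.05 and 0 by DESeq2 or limma voom. Their sums were 24.4, 17.3 and 63.3 CPM in subcutaneous RTX lungs and 56, 51.1 and 53.3 CPM in intrathecal RTX lungs, and without subcutaneous RTX library 3, 3 of the 8 were lower, with a median of −1.04. Of 9 fat genes 1 was higher, Fabp4, which lost the call without any 1 of the subcutaneous RTX libraries, intrathecal RTX library 2 or any 1 of the 4 vehicle libraries. Fat genes summed to 54.6 to 104 CPM in subcutaneous RTX lungs and 43.1 to 79.8 CPM in intrathecal RTX lungs. Their part in the differences above was not tested.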

How the data were processed

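Poly(A)-enriched whole-lung RNA libraries were compared as estimated counts per gene, which the authors deposited in 1 table for each experiment, so each route has its own table. Per the submitters' processing notes, FastQC 0.11.8, Trim Galore 0.6.6, STAR 2.7.5b, Salmon 1.2.1 and the GRCm38 build were used; the annotation release and the strand setting are not given in the sources used here, so a gene and an overlapping antisense gene cannot be told apart. Of the deposited expected count values 24.2% were not whole, and all were rounded. The tables hold 54347 genes, and coordinates come from the files' gene identifiers matched to GENCODE M21.

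Genes passed edgeR's filter (minimum count 10, minimum total 15), which left 17972. The 10 libraries of 4 groups entered 1 quasi-likelihood fit (edgeR 4.0.16, TMM scaling, robust) with 3 main contrasts: between the RTX groups, between the vehicle groups, and their difference. Adjusted p-values are Benjamini-Hochberg over all tested genes, called below 0.05. The steps were tested on simulated data. Replicates differed by more than sampling noise (chi-square per degree of freedom 8.91 to 21.3). Each was counted as its own sample, although that spread does not show that each came from its own mouse. Members, lists and tests were chosen with earlier results of these data known, so lists are described by counts and medians only. Named genes are the 12 largest rises and 12 largest falls among called genes whose groups do not overlap and whose log2 CPM averaged 1 or more, the 8 largest of each direction beyond vehicle, up to 4 called members of each list, smallest p first, and a fixed set of neuropeptide and type 2 genes. Predicted and clone gene names (Gm plus digits, Rik, a dot or a clone accession) were left out of the rankings of rises and falls. Hspa1b, Hspa1a, Dnajb1, Gm38025, the vehicle-called Ankrd50 and members named although they did not pass were added after their values were seen. Alternatives were DESeq2 size factors, no filter, DESeq2, limma voom, a replicate block, the 6 RTX libraries alone, each library left out, and, added after the data were seen, a term for the Rps3a2 and Hmga2 split.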

Additional observations from a re-analysis of the deposited data

Results flagged for a closer look

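The RTX effect, RTX over vehicle on the log2 scale, differed between the subcutaneous and the intrathecal experiment in 10 of 17972 genes by edgeR's test of that difference. The subcutaneous effect exceeded the intrathecal one by 1.02 for Dnaja1, by 1.019 for Syvn1, by 0.80 for Cybb and by 0.7662 for Mtmr4. It was below the intrathecal one for Hspb1 (a difference of −1.658), Ly6c1 (−0.9701), Ctla2a (−0.8141), Hspe1 (−0.7616) and Ecscr (−0.6296). The value of 10.02 for Gm38025 comes from a transcript with 0 counts in both subcutaneous vehicle libraries and is no measure of size. For Cybb the effect was 0.75 in the subcutaneous and −0.05 in the intrathecal experiment, whereas for Hspb1 it was 0.26 in the subcutaneous and 1.92 in the intrathecal experiment. All 10 calls were kept without subcutaneous RTX library 1 or 3 or subcutaneous vehicle library 2, and all 10 were lost without any 1 of the intrathecal libraries or subcutaneous vehicle library 1.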

How the results depend on the processing

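The count of 2110 genes between the RTX groups was 2080 with DESeq2 size factors, 2181 without the filter, 2744 with DESeq2, 2008 with limma voom and 2171 with the 6 RTX libraries alone, all within 1.5 times. It was 1344 with the replicate block and 26 with the term for the Rps3a2 and Hmga2 split, and 959 to 2341 when 1 library was left out. The 8 genes between the vehicle groups were 202 without the filter, 663 with DESeq2, 0 with limma voom, 2 with the block, 0 with the split as a term, and 0 to 80 with 1 library left out. The 10 genes beyond vehicle were 147 without the filter, 317 with DESeq2, 2 with the block, 1 with the split as a term, and 0 to 90 with 1 library left out. The share of called genes with the vehicle difference in the same direction, 75.3%, was 78.3% with the block, 38.5% with the split as a term, and 57.1% to 83.6% with 1 library left out. The replicate numbers do not pair the samples: same-numbered RTX libraries had deviations correlated at −0.0739 to 0.0228, and 1 of 6 correlated best with its own number. With the split as a term, log2 fold changes turned round for Stat5a (−0.1333), Ccl24 (−0.5716), Arg1 (−0.5986), Il13 (−0.04513), Agr2 (0.09343), Csf1r (−0.1073), Clca1 (0.604), Ngp (−0.09037), Il5 (−0.647), Sntn (0.1169) and Ccr2 (−0.083), and without the filter for Muc5ac (−0.0009515). Hmga2 (0.797) and Rps3a2 (−0.4148) turned round with the term too, but they define the split, so the loss of their differences was fixed in advance. With 1 library left out, values that changed sign ran between −0.05939 and 0.2131 for Il33, −0.2694 and 0.04167 for Clca1, −0.3586 and 0.1328 for Areg, −0.1664 and 0.2657 for Calcb, −0.5564 and 0.04426 for Calca, −0.1664 and 0.09589 for Ramp1, and −0.208 and 0.1773 for Muc5ac. Of 146 named calls between the RTX groups 86 were kept whichever library was left out, and 5 under every alternative: Col23a1, Dnaja1, Ighv1-81, Igkv8-30 and Pax5. The cause of these shifts was not tested. Genes near the floor of 0.123 to 0.148 CPM, such as Gm38025, are limited by depth, and with 2 vehicle libraries a group the vehicle differences are less precise than the RTX differences.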
